A study of Homo sapiens with 24 samples.

Results

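The genes described here are 45 factors that make ribosomes in the nucleolus: RNA polymerase I and its initiation factors, the protein cores of the small nucleolar ribonucleoproteins, and assembly factors of the small and the large ribosomal subunit. Their symbols were listed by name, and each symbol was matched to a row of the deposited gene table through its Ensembl identifier. All 45 symbols matched 1 protein-coding row each, out of 60675 genes in the table. All 45 also passed the filter on low counts and were tested in every comparison. By role they comprised 5 RNA polymerase I factors, 3 box C/D and 4 box H/ACA proteins, 16 small-subunit factors, 3 members of the PeBoW complex, 5 of the rixosome, 6 other large-subunit factors and 3 abundant nucleolar proteins.

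RNA polymerase I transcribes the ribosomal DNA into a long precursor, which is cut, folded and chemically modified while ribosomal proteins are added to it. Small nucleolar RNAs guide the modifications, box C/D particles directing methylation of the ribose and box H/ACA particles directing pseudouridylation. The small-subunit processome assembles on the front part of the precursor, and the PeBoW complex, the rixosome and many helicases and GTPases prepare the large subunit. Cells that grow fast depend on this pathway, and its output is known to follow nutrient, growth factor and stress signals.

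SW1783, an established line from a human astrocytoma, was treated for 24 h with extracts of Schisandrae Fructus, the dried fruit of Schisandra chinensis, and RNA was sequenced. In batch A the cells received the hot water extract (WESF), with 20 µg/mL as the low, 100 µg/mL as the medium and 500 µg/mL as the high dose. In batch B they received the ethanol extract (EESF) at 12.4, 62 and 310 µg/mL. Each batch had its own vehicle group, which received DMSO in saline without extract. There were 3 libraries in each of the 8 groups, 24 in all.

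Because each extract was run in its own batch, the extract and the batch cannot be told apart when WESF and EESF are compared, and their high doses differ (500 and 310 µg/mL). According to the methods, the high dose of WESF was not toxic in a preliminary screen, whereas that of EESF was chosen at a mildly toxic concentration. The labels do not say whether the 3 libraries of a group came from separate cultures, so p-values measure the spread between these libraries, which may be technical. Library totals ran from 18727797 to 32567395 expected counts, and the share of counts from mitochondrial genes ran from 7.79 to 14.1%. That share was 9.60, 7.79 and 8.55% in the high-dose WESF libraries, below the 10.3 to 10.6% of vehicle A, and 11.2 to 11.96% with high-dose EESF, overlapping the 11.6 to 11.9% of vehicle B. Its part in the results was not tested. Levels are given as CPM, in which each library's counts are scaled to a common total by the TMM method. In bulk RNA, fewer cells of a kind and less RNA per cell cannot be told apart.

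The astrocyte label was compared with marker genes. The intermediate filament gene VIM was abundant in vehicle A (4821 CPM ± 49.3 SD, n = 3), and so was the hyaluronan receptor gene CD44 (2836 CPM ± 113). The glial transcription factor SOX9 was at 81.7 CPM and the glutamate transporter SLC1A3 at 31.8 CPM. Markers of differentiated astrocytes (GFAP, S100B, ALDH1L1, AQP4 and SLC1A2) were all below 1 CPM on average in each group, so the label rests on the less specific markers. At the high doses 4 of the 5 astrocyte markers that were tested (SLC1A3, SOX9, NES and CD44) were lower with each extract, and VIM did not pass.

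Of 6 markers of other cell types, the oligodendrocyte gene MOG was at 0 in the vehicle and high-dose libraries, the neuronal gene RBFOX3 and the epithelial gene EPCAM were below 1 CPM, and the endothelial gene PECAM1 was at 1.07 CPM in vehicle A. The most abundant in the vehicle was the leukocyte gene PTPRC, at 10.2 CPM in vehicle A and 9.81 CPM in vehicle B, which was lower at the high doses (2.12 CPM with WESF and 1.88 with EESF). The myelin gene MBP was higher (12.6 and 9.66 CPM, against 6.80 and 6.59 in vehicles A and B). RBFOX3 was higher with WESF as well, from 0.112 to 0.709 CPM, and PECAM1 lower, from 1.07 to 0.634 CPM. The summed level of the 6 markers was 17.1, 19.4 and 18.1 CPM in the libraries of vehicle A and 17.1, 16.1 and 15.1 CPM with high-dose WESF, and 16.8, 18.3 and 17.7 CPM in vehicle B and 12.7, 13.6 and 12.6 CPM with high-dose EESF. The part of these markers in the results was not tested.

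Under high-dose WESF, 23 of the 45 factors (51.1%) were higher and 13 (28.9%) lower than in vehicle A at an adjusted p under 0.05 (edgeR's quasi-likelihood test, Benjamini-Hochberg). Among all 13129 genes tested in that comparison, 34.3% were higher and 34.6% lower. Under high-dose EESF, 30 factors (66.7%) were higher and 6 (13.3%) lower than in vehicle B, where 29.3% of 13092 genes were higher and 28.7% lower. The median log2 fold change of the factors was 0.12 with WESF and 0.20 with EESF, whereas the median of all genes was 0.00 and 0.01.

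Most of these changes were small. DEGs were defined, as in the methods, by an adjusted p under 0.05 and a change beyond 1.5-fold. With high-dose WESF, 3 factors were upregulated DEGs (GNL3, DDX21, NOLC1) and 2 downregulated (UBTF, UTP20), and 11.1 and 13.0% of all genes were DEGs in those directions. With high-dose EESF, 4 were upregulated (NOP16, NOP53, GNL3, NOLC1) and UTP20 was downregulated, and 8.21 and 9.17% of all genes were DEGs in those directions. Among the factors these were 6.67 and 4.44% with WESF and 8.89 and 2.22% with EESF, below the share over all genes apart from the upregulated ones with EESF, which were close to it.

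Few factors passed at the lower doses. Low-dose WESF gave 0 calls among the 45 with edgeR and with DESeq2. In that comparison 1 factor, and 470 of 13131 genes, had an unadjusted p under 0.05 in edgeR, and 0% of all genes passed. Medium-dose WESF gave 1 higher and 1 lower factor (1.89 and 2.20% of all genes), medium-dose EESF 2 higher and 3 lower (6.90 and 8.48%), and low-dose EESF 1 higher and 3 lower (3.11 and 6.24%). In that order, 0 of 2, 2 of 5 and 1 of 4 of these calls held in every alternative setting. Between vehicle B and vehicle A, 0 factors and 0% of all 13001 genes passed in edgeR, where 2 factors and 371 genes had an unadjusted p under 0.05. DESeq2 also called 0 of the factors there.

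**Figure D1:**
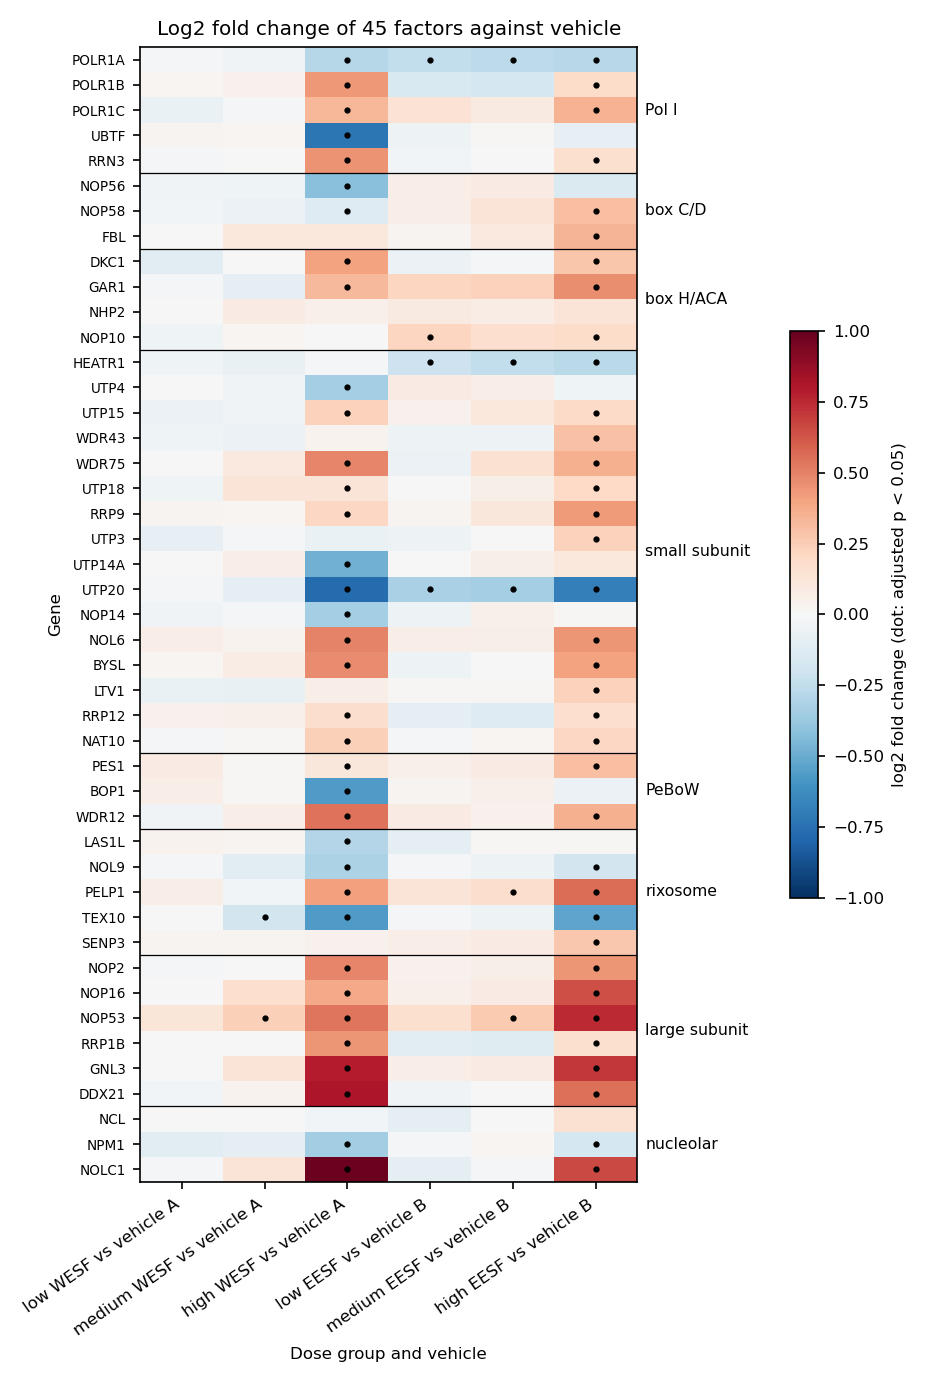
Log2 fold change of the 45 factors (rows, grouped by role) in each dose group against the vehicle of its batch (columns), with a dot where the adjusted p was under 0.05. Calls gather in the 2 high-dose columns, 36 of 45 in each, and all 6 of the large-subunit group are red in both.

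Taken library by library, the median factor lay above the vehicle mean in each high-dose library. Relative to the mean of vehicle A, the median factor was higher by 0.07, 0.14 and 0.12 on the log2 scale in the 3 high-dose WESF libraries. Relative to vehicle B it was higher by 0.18, 0.21 and 0.26 with high-dose EESF. In the libraries of the other 6 groups the same median lay between -0.05 and 0.04. For WESF, the number of factors above the vehicle mean overlapped with other groups. It was 30, 28 and 29 with the high dose, 28, 25 and 28 with the medium dose and 32, 17 and 21 in vehicle A. With high-dose EESF it was 32, 37 and 36, against 29, 28 and 31 with the medium dose and 28, 18 and 22 in vehicle B. The summed level of the 45 factors was 5000 to 5198 CPM with high-dose WESF and 5163 to 5469 CPM with high-dose EESF. These were above the 4819 to 4910 CPM of the 6 vehicle libraries. Abundant factors weigh most in this sum. With WESF the rises of DDX21 and NOLC1, given below, together exceeded the rise of the sum, so it does not show a shift of the whole set. Replicate 1 of high-dose EESF held the lowest value of its group for 25 of the 45 factors. Without it the counts for high-dose EESF were 31 higher and 6 lower.

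The 2 lists of high-dose calls shared 23 factors that were higher with both extracts (51.1% of the 45) and 5 that were lower with both (11.1%), namely NOL9, NPM1, POLR1A, TEX10 and UTP20. Shared calls were common over the whole transcriptome too, where 22.5% of 13002 genes tested in both comparisons were higher with both and 23.0% lower with both. NOP58, a core protein of box C/D particles, was called lower with WESF and higher with EESF, and 1.55% of all genes were called in opposite directions. The vehicle groups are separate, so these comparisons share no library. A further 6 factors were called higher with EESF and not with WESF (FBL, LTV1, NOP10, SENP3, UTP3, WDR43), HEATR1 was called lower with EESF alone, and 7 were called lower with WESF alone (BOP1, LAS1L, NOP14, NOP56, UBTF, UTP14A, UTP4). NCL and NHP2 passed in neither. A call with 1 extract alone does not show that the extracts differ.

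**Figure D2:**
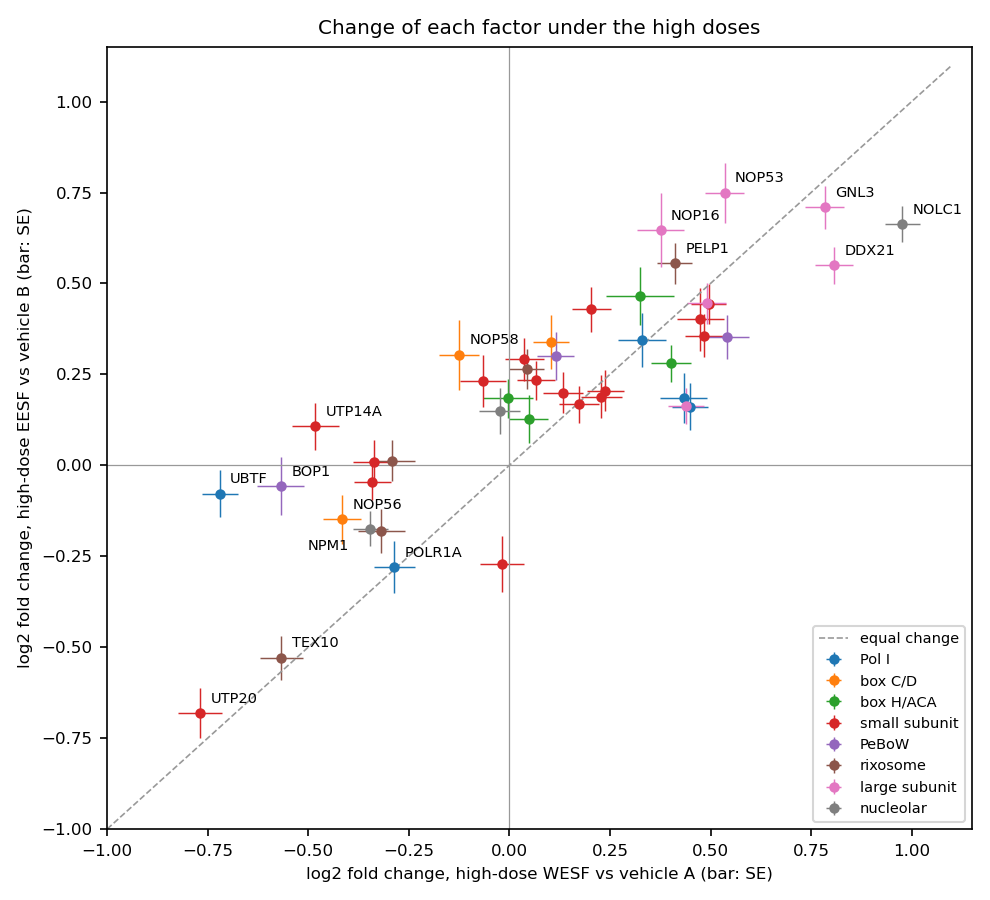
Log2 fold change of each factor under high-dose EESF (y axis) against that under high-dose WESF (x axis), with SE as bars, 1 colour per role and a dashed line of equal change. UBTF, BOP1 and UTP14A lie far to the left of the line, and UTP20 and TEX10 at its lower end.

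Promoter sequences are shown because many of these genes were called in the same direction with both extracts. RefSeq windows on GRCh38.p14, from 250 bases before to 50 after a transcription start, were matched by symbol for 40 of the 45 genes. The E-box CACGTG, which reads the same on both strands and is bound by MYC with MAX and by other factors of the same fold, was present in the window of 20 of these 40 genes (50%), against 12.6% of 10638 tested genes with a window and 8.77% of all 27305 symbols. Several genes have more than 1 window, and a gene was counted if any held the motif. CCGGAAG, searched on both strands, was in 16 of 40 (40%) against 22% of tested genes, and CCAAT in 17 (42.5%) against 43.4%. CTCGCGAG, a palindrome, was in 4 (10%) against 2.47%, and GCATGCGC, searched on both strands, in 3 (7.5%) against 6.29%. A match is a description and not a binding site.

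The E-box was found among factors that moved either way. Under high-dose WESF, 11 of the 20 higher factors with a window held it, 5 of the 11 lower ones and 4 of the 9 that did not pass. Under high-dose EESF the counts were 15 of 26, 2 of 6 and 3 of 8. Windows are given 5′ to 3′ on the gene's strand, with the E-box in capitals, for DDX21 and GNL3, which rose with both extracts, for UTP20 and TEX10, which fell with both, and for UBTF, which fell with WESF and whose windows hold no E-box. They lie at chr10:68956397-68956696 (+), chr3:52685782-52686081 (+), chr12:101279855-101280154 (+), chr9:100352893-100353192 (-) and chr17:44220833-44221132 (-). DDX21, GNL3 and TEX10 each have another window, from another start site, that holds no E-box and is not printed, and of the windows of UBTF 1 is printed. The E-box starts 31, 10 and 30 bases before the transcription start in DDX21, UTP20 and TEX10, and at base 7 after it in GNL3.
DDX21: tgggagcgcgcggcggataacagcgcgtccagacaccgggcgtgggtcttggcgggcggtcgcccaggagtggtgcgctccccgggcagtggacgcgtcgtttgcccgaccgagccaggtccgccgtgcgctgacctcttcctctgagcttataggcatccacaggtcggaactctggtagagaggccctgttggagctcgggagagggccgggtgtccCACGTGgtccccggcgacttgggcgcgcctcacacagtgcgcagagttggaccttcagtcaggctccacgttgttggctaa
GNL3: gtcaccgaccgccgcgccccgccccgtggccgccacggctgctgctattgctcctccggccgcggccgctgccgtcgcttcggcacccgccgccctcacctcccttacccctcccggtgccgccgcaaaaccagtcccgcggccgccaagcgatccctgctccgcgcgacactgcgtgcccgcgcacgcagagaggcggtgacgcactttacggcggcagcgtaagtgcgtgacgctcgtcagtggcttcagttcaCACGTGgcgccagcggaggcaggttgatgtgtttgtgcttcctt
UTP20: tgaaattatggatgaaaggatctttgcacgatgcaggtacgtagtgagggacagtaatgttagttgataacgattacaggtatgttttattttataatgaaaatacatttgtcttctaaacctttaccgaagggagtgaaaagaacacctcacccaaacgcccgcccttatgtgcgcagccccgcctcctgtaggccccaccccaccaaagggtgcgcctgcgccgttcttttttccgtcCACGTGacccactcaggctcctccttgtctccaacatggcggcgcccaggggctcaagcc
TEX10: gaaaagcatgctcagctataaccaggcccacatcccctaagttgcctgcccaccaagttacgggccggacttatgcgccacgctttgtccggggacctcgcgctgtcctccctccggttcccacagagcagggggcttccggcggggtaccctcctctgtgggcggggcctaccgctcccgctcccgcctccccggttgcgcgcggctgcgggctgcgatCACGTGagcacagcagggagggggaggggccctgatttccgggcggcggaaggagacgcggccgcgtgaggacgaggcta
UBTF: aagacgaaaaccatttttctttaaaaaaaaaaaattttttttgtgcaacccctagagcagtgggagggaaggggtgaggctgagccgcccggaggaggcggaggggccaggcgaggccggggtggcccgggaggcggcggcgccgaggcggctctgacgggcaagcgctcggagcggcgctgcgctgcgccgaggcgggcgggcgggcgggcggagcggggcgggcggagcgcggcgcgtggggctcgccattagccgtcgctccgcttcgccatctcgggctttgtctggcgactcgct

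RNA polymerase I factors moved in opposite directions within the same complex. UBTF, the architectural protein that keeps ribosomal DNA open for transcription (ENSG00000108312, GRCh38 chromosome 17, 44205033 to 44221626, minus strand), was at 104, 105 and 99.2 CPM in vehicle A and at 63.1, 62.2 and 61.5 CPM with high-dose WESF. The WESF libraries lay far below the vehicle libraries and close to each other. The fitted change was -0.72 on the log2 scale (SE 0.04, adjusted p = 3.21e-10). With high-dose EESF, UBTF was at 88.9, 105 and 102 CPM against 105, 105 and 104 CPM in vehicle B, where the groups overlapped (log2 fold change -0.08, 95% interval -0.22 to 0.06).

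POLR1A, the largest catalytic subunit, fell with both high doses. It was at 109, 116 and 122 CPM in vehicle A and 93.2, 99.7 and 92.0 CPM with high-dose WESF, and at 111, 111 and 124 CPM in vehicle B and 102, 98.2 and 85.1 CPM with high-dose EESF. No treated library reached the lowest vehicle library in either batch. The log2 fold change was -0.29 (SE 0.05, adjusted p = 0.000102) and -0.28 (SE 0.07, adjusted p = 0.00494). POLR1C, a subunit shared with RNA polymerase III, went the other way: it was at 22.7, 22.6 and 20.9 CPM in vehicle A and 27.1, 27.2 and 29.0 CPM with WESF, and at 20.4, 21.2 and 19.7 CPM in vehicle B and 23.6, 27.4 and 26.9 CPM with EESF. All treated libraries exceeded their vehicle libraries, and the log2 fold change was 0.33 (SE 0.06) with WESF and 0.34 (SE 0.07) with EESF.

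The second-largest catalytic subunit POLR1B and the initiation factor RRN3, which carries the polymerase to the promoter, rose with both extracts. RRN3 went from 60.4 ± 1.18 CPM (SD, n = 3) in vehicle A to 82.5 ± 1.74 CPM with high-dose WESF, a log2 fold change of 0.45 (adjusted p = 1.1e-07). With EESF its change was 0.16 (adjusted p = 0.0468), and that call was lost in 10 of 13 alternative settings. For POLR1B the log2 change with WESF was 0.43 (adjusted p = 4.8e-06). That with EESF was 0.19 (adjusted p = 0.0327), and this call was lost in 9 of 13. RRN3 has 3 named pseudogenes in the table and fractional counts in 95.8% of libraries, so part of its reads was shared with other genes and its level is uncertain. Which genes shared them was not tested.

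Among the proteins of the small nucleolar particles, 2 of the 3 box C/D proteins fell with high-dose WESF and 2 of the 4 box H/ACA proteins rose, counts too small to set apart from the 34.6% of all genes that were lower and the 34.3% that were higher. NOP56, a core box C/D protein, was at 133, 125 and 124 CPM in vehicle A and 90.6, 99.2 and 96.6 CPM with high-dose WESF. All 3 WESF libraries lay below the vehicle range, and the fitted log2 change was -0.42 (SE 0.05, adjusted p = 6.82e-07). In batch B it was at 130.4, 126 and 118 CPM in the vehicle and 101, 119 and 118 CPM with EESF, overlapping, with a change of -0.15 (adjusted p = 0.0773). FBL, the methyltransferase of these particles, was at 93.1, 91.4 and 90.9 CPM in vehicle B and 101, 122 and 125 CPM with high-dose EESF, all above the vehicle. On the log2 scale it rose by 0.34 (SE 0.07, adjusted p = 0.00199), and the change with WESF was 0.10 (adjusted p = 0.051).

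NOP58, the other core box C/D protein, was called in opposite directions. It was at 63.95, 61.2 and 59.7 CPM in vehicle A and 57.5, 58.8 and 53.3 CPM with high-dose WESF, and at 66.0, 62.05 and 62.6 CPM in vehicle B and 64.5, 81.3 and 89.5 CPM with high-dose EESF. The WESF libraries lay just below their vehicle, whereas replicate 1 of EESF lay within the vehicle range. Its changes of -0.13 (adjusted p = 0.0337) and 0.30 (adjusted p = 0.0168) were lost in 6 and 4 of 13 alternative settings, while the difference of 0.43 between them (SE 0.12, adjusted p = 0.0158) passed in all 19.

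DKC1, the pseudouridine synthase of the box H/ACA particles, was at 136, 120 and 124 CPM in vehicle A and 163, 172 and 167 CPM with high-dose WESF. The libraries separated without overlap (log2 fold change 0.40, SE 0.05, adjusted p = 1.7e-06). GAR1, its small partner protein, was at 10.6, 11.6 and 10.1 CPM in vehicle B and 14.8, 14.3 and 15.6 CPM with high-dose EESF, again without overlap (log2 fold change 0.47, SE 0.08, adjusted p = 0.000311). Both genes rose with both extracts. NHP2 passed in neither comparison, and NOP10 rose with EESF (0.18) and did not pass with WESF.

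Some of these genes carry small nucleolar RNAs in their introns. Of the 45 factors, 8 (17.8%) held 25 snoRNA or scaRNA genes on their own strand, against 1.38% of protein-coding genes: GNL3 held 6, NOP56 5, NOP58 4, NCL 3, WDR43 3, DKC1 2, and POLR1C and NOP53 1 each. They did not move as a group. GNL3, DKC1, POLR1C and NOP53 rose with both extracts, NOP56 fell with WESF, NOP58 was called in opposite directions, WDR43 rose with EESF and NCL passed in neither. GNL3, POLR1C and others, 13 of the 45 in all, overlap a protein-coding gene on the opposite strand, and whether counting used the strand is not given in the sources used here.

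Of the 16 small-subunit factors, 8 rose and 4 fell with high-dose WESF, and 11 rose and 2 fell with EESF. These were 50 and 25% with WESF, against 34.3 and 34.6% of all genes, and 68.8 and 12.5% with EESF, against 29.3 and 28.7%. UTP20, a long scaffold protein of the small-subunit processome (ENSG00000120800, chromosome 12, 101280105 to 101386618, plus strand), fell most among the 45 factors with both. It was at 75.8, 79.9 and 86.5 CPM in vehicle A and 47.8, 46.3 and 48.0 CPM with high-dose WESF. In batch B it was at 79.7, 87.4 and 86.8 CPM in the vehicle and 57.8, 51.9 and 48.7 CPM with high-dose EESF. The highest treated library was well below the lowest vehicle library in each batch. The log2 fold change was -0.77 (SE 0.05, adjusted p = 1.73e-09) with WESF and -0.68 (SE 0.07, adjusted p = 4.68e-06) with EESF.

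Other members of the same processome rose. The scaffold gene NOL6 changed by 0.50 with WESF and 0.44 with EESF, BYSL, which acts on the maturing small subunit, by 0.47 and 0.40, and WDR75 by 0.48 and 0.36. The early subcomplex that binds the start of the precursor was split: UTP15 and WDR75 rose with both, WDR43 rose with EESF, HEATR1 fell with EESF (-0.27, adjusted p = 0.00913), and UTP4 fell with WESF (-0.34). UTP14A, which activates a helicase of the processome, was at 45.8, 42.1 and 41.2 CPM in vehicle A and 31.9, 31.9 and 28.6 CPM with high-dose WESF, with no overlap (log2 fold change -0.48, SE 0.06, adjusted p = 1.46e-06). In batch B it was at 41.6, 42.4 and 39.5 CPM in the vehicle and 40.8, 46.6 and 45.6 CPM with EESF, where the groups overlapped. UTP14A and NOP14 had fractional counts in every library, with 0 named pseudogenes in the table, so part of their reads was shared with other genes and their levels are uncertain. Fractional counts were also frequent for NHP2, NOP16 and SENP3 (95.8% of libraries), HEATR1 (91.7%), POLR1C (83.3%) and RRP12 (62.5%), and less so for UBTF (37.5%).

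In the PeBoW complex (PES1, BOP1 and WDR12), which processes the RNAs of the large subunit, the subunits did not move together under WESF. BOP1 was at 91.1, 80.6 and 81.8 CPM in vehicle A and 56.4, 61.5 and 53.4 CPM with high-dose WESF, all below the vehicle. The fall was by 0.57 on the log2 scale (SE 0.06, adjusted p = 1.69e-07). WDR12 was at 30.4, 32.01 and 33.2 CPM in vehicle A and 45.7, 48.4 and 45.2 CPM with WESF, a rise of 0.54 (SE 0.05, adjusted p = 1.22e-07). With high-dose EESF, WDR12 was at 40.5, 38.0 and 40.7 CPM against 31.9, 29.7 and 31.6 CPM in vehicle B, again all above (0.35, SE 0.06, adjusted p = 0.000304). BOP1 was at 66.5, 80.3 and 81.0 CPM with EESF and 85.7, 76.8 and 74.6 CPM in vehicle B, which overlapped. PES1 rose with EESF (0.30, adjusted p = 0.00181), and with WESF its change of 0.12 passed narrowly (adjusted p = 0.036) and was lost in 7 of 13 alternative settings.

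The listed factors of the rixosome, a large-subunit complex, were likewise split. They were the scaffold PELP1, TEX10, the protease SENP3, the endonuclease LAS1L and the kinase NOL9, and need not be the whole complex. TEX10 was at 45.3, 43.8 and 44.9 CPM in vehicle A and 29.4, 32.03 and 29.1 CPM with high-dose WESF, and at 44.6, 47.3 and 45.1 CPM in vehicle B and 33.6, 30.3 and 31.1 CPM with high-dose EESF. Every treated library was below every vehicle library. The log2 fold change was -0.57 (SE 0.05, adjusted p = 6.21e-08) with WESF and -0.53 (SE 0.06, adjusted p = 1.38e-05) with EESF. PELP1 was at 103, 96.0 and 104 CPM in vehicle B and 145, 145 and 157 CPM with high-dose EESF, all above the vehicle (0.56, SE 0.06, adjusted p = 5.2e-06), and it rose by 0.41 with WESF. NOL9 fell with both and LAS1L with WESF (-0.29, adjusted p = 0.00024).

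All 6 of the other large-subunit factors (NOP2, NOP16, NOP53, RRP1B, GNL3, DDX21) rose with both extracts, where 22.5% of all genes did, with a median log2 fold change of 0.51 for WESF and 0.60 for EESF. DDX21, a nucleolar RNA helicase (ENSG00000165732, chromosome 10, 68956135 to 68985068, plus strand), was at 227, 240.0 and 250.3 CPM in vehicle A and 416, 431 and 409 CPM with high-dose WESF. The 2 groups were far apart, 0.81 on the log2 scale (SE 0.05, adjusted p = 1.5e-10). With high-dose EESF it was at 357, 347 and 366 CPM against 235, 242 and 253 CPM in vehicle B (0.55, SE 0.05, adjusted p = 2.59e-06).

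NOP53, an assembly protein of the large subunit, was at 50.3, 46.6 and 43.5 CPM in vehicle B and 68.8, 84.0 and 83.0 CPM with high-dose EESF. Replicate 1 was the lowest of the EESF libraries and still above the vehicle (0.75, SE 0.08, adjusted p = 8.7e-06). GNL3, the nucleolar GTPase nucleostemin (ENSG00000163938, chromosome 3, 52681156 to 52694497, plus strand), went from 82.9 ± 2.03 to 143 ± 8.37 CPM with WESF and from 83.5 ± 2.81 to 136 ± 8.06 CPM with EESF. These were changes of 0.78 and 0.71 on the log2 scale. NOP16 rose more with EESF (0.65, SE 0.10) than with WESF (0.38, SE 0.06), but the difference did not pass (adjusted p = 0.121).

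The 3 abundant nucleolar proteins took 3 courses. NOLC1, a chaperone of small nucleolar particles (ENSG00000166197, chromosome 10, 102152176 to 102163871, plus strand), rose most of the 45 factors with WESF, from 137, 135 and 136 CPM in vehicle A to 260, 278 and 266 CPM. In batch B it went from 134, 132 and 138 CPM to 209, 219 and 212 CPM with EESF. No high-dose library came near a vehicle library, and the log2 fold change was 0.98 (SE 0.04, adjusted p = 5.4e-12) and 0.66 (SE 0.05, adjusted p = 4.27e-07). NPM1, a histone and ribosomal protein chaperone, fell by 0.35 with WESF and by 0.17 with EESF. It has 49 named pseudogenes in the table and fractional counts in every library, so its level is uncertain. NCL, nucleolin, was at 452 ± 13.6 CPM in vehicle A and 445 ± 34.2 CPM with WESF, and its change of -0.02 had an interval of -0.13 to 0.09.

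**Figure D3:**
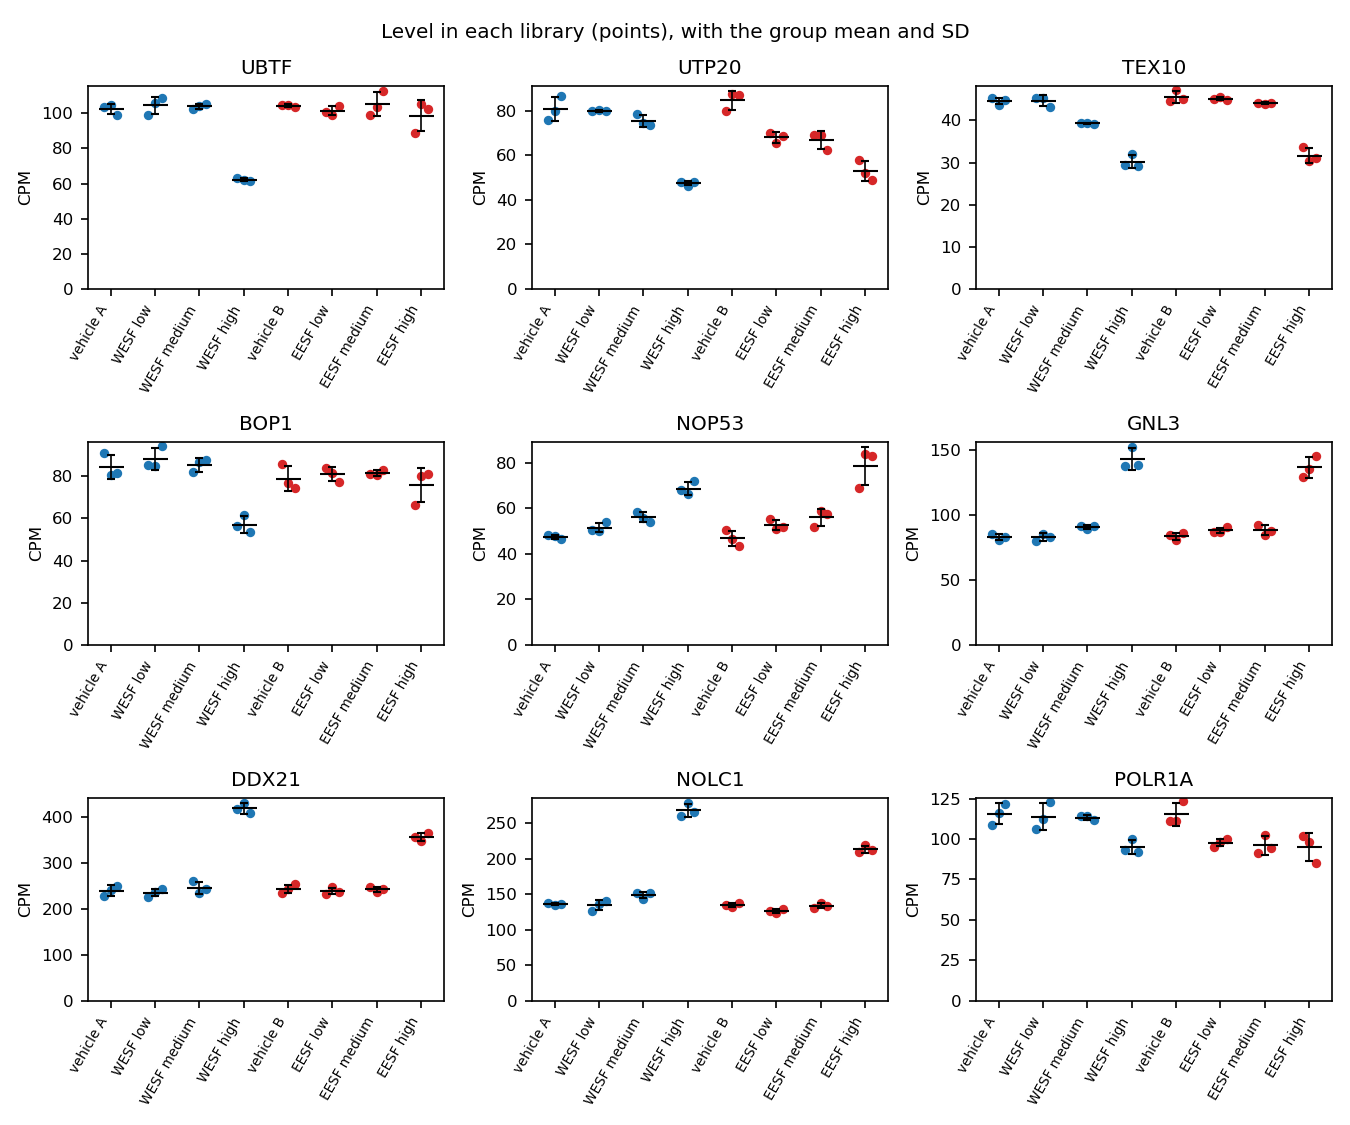
CPM of 9 factors in each of the 24 libraries (points, batch A in blue and batch B in red), with the group mean as a dash and the SD as a bar. UBTF and BOP1 drop with high-dose WESF and stay near the vehicle with EESF, and GNL3, DDX21 and NOLC1 rise at both high doses. UTP20 lies below vehicle B at every EESF dose, with the low and medium doses overlapping and the high dose lowest.

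Per kilobase of merged exon, the factors differed widely in level. In vehicle A, NPM1 was the highest at 143 CPM per kb, followed by NHP2 (57.8), NCL (50.7), FBL (45.5) and NOP10 (38.9). POLR1B was the lowest at 2.65 CPM per kb, below WDR12 (3.31), POLR1C (4.01) and UTP15 (5.56). UBTF (14.5) and RRN3 (14.6) lay side by side in the vehicle, before the former fell and the latter rose with WESF. Merged exons include those of all annotated transcripts, so levels per kb of genes with long alternative exons are understated.

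With EESF, 3 of the 45 factors (6.67%) were lower at each of the low and medium doses, close to the 6.24 and 8.48% of all genes. UTP20 was at 70.1, 65.3 and 68.6 CPM with low-dose EESF and 69.1, 68.8 and 62.2 CPM with the medium dose, against 79.7 to 87.4 CPM in vehicle B. All 6 libraries lay below the vehicle, with log2 fold changes of -0.32 (SE 0.05, adjusted p = 0.00319) and -0.34 (SE 0.05, adjusted p = 0.00116). The low and medium groups overlapped each other, and the high dose lay below both. With WESF the low and medium doses gave -0.01 and -0.10, which did not pass.

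POLR1A had almost the same level at all 3 doses of EESF. It was at 95.3, 98.3 and 99.8 CPM with the low dose and 91.4, 103 and 94.2 CPM with the medium dose, against 111 to 124 CPM in vehicle B. Its change on the log2 scale was -0.25 (SE 0.05, adjusted p = 0.00986), -0.26 (SE 0.06, adjusted p = 0.00589) and -0.28 from the low to the high dose, and the groups of the 3 doses overlapped. Without replicate 1 or replicate 2 of the low-dose group the low-dose call was lost. HEATR1 also fell at the low (-0.20, adjusted p = 0.0341) and the medium dose (-0.24, adjusted p = 0.00893), calls that were lost in 6 and 2 of 13 alternative settings. The low-dose call was lost without any of the 3 low-dose libraries or without replicate 2 or 3 of vehicle B, and the medium-dose call without replicate 2 of vehicle B or replicate 3 of the medium dose.

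NOP53 was the only factor called higher at the medium dose of both extracts. It was at 58.4, 55.9 and 54.2 CPM with medium-dose WESF against 46.6 to 48.1 CPM in vehicle A (0.24, SE 0.05, adjusted p = 0.0135). With medium-dose EESF it was at 51.8, 58.9 and 57.7 CPM against 43.5 to 50.3 CPM in vehicle B (0.26, SE 0.06, adjusted p = 0.0111). All 6 libraries were above their vehicle. The low doses gave 0.12 (adjusted p = 0.999) and 0.16 (adjusted p = 0.0872), and the order low, medium, high held for the group means with both extracts. This order was not compared over all factors, so it is not shown to be particular to NOP53. Each of the 2 medium-dose calls was lost without 3 of the 6 libraries in turn.

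TEX10 was the other factor called with medium-dose WESF. It was at 39.5, 39.4 and 39.2 CPM, below the 43.8 to 45.3 CPM of vehicle A (-0.18, SE 0.05, adjusted p = 0.0387), and that call was lost in 7 of 13 alternative settings, DESeq2 among them. With medium-dose EESF it was at 44.1 ± 0.20 CPM against 45.6 ± 1.42 CPM, which did not pass. PELP1 rose with medium-dose EESF (0.18, adjusted p = 0.0283) and NOP10 with the low dose (0.21, adjusted p = 0.0151). These calls were lost in 4 and 3 of 13 alternative settings, that of PELP1 without replicate 2 of vehicle B or replicate 3 of the medium dose among them, and that of NOP10 without replicate 2 of vehicle B or replicate 1 or 2 of the low dose.

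The change of the factors was compared with their merged exon length. It joins the exons of all annotated transcripts, so it can exceed the length of any single transcript. With EESF, the log2 fold change across the 45 factors was correlated with log2 merged exon length. The r was -0.53 at the low, -0.54 at the medium and -0.40 at the high dose. Across all genes tested the same correlation was -0.35, -0.33 and -0.22. With WESF it was 0.03, -0.24 and -0.15 for the factors from the low to the high dose, and -0.02, -0.13 and -0.04 for all genes. Between vehicle B and vehicle A, without any extract, it was 0.32 for the factors and 0.07 for all genes, of the opposite sign to the values against vehicle B. These are descriptions across genes, which share the same libraries and are not independent. By this measure POLR1A (19694 bases), UTP20 (10030 bases) and HEATR1 (9061 bases) are among the longest of the 45. WDR12 (9619 bases), DDX21 (9274 bases) and DKC1 (9198 bases) are longer than HEATR1. These rose with high-dose EESF (0.35, 0.55 and 0.28) but did not pass at its low and medium doses. LAS1L (12555 bases), also longer than HEATR1 by merged exons, passed at no dose of EESF. Which transcripts of these genes were expressed was not tested. The part of transcript length in the lower values of POLR1A, UTP20 and HEATR1 with EESF was not tested.

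**Figure D4:**
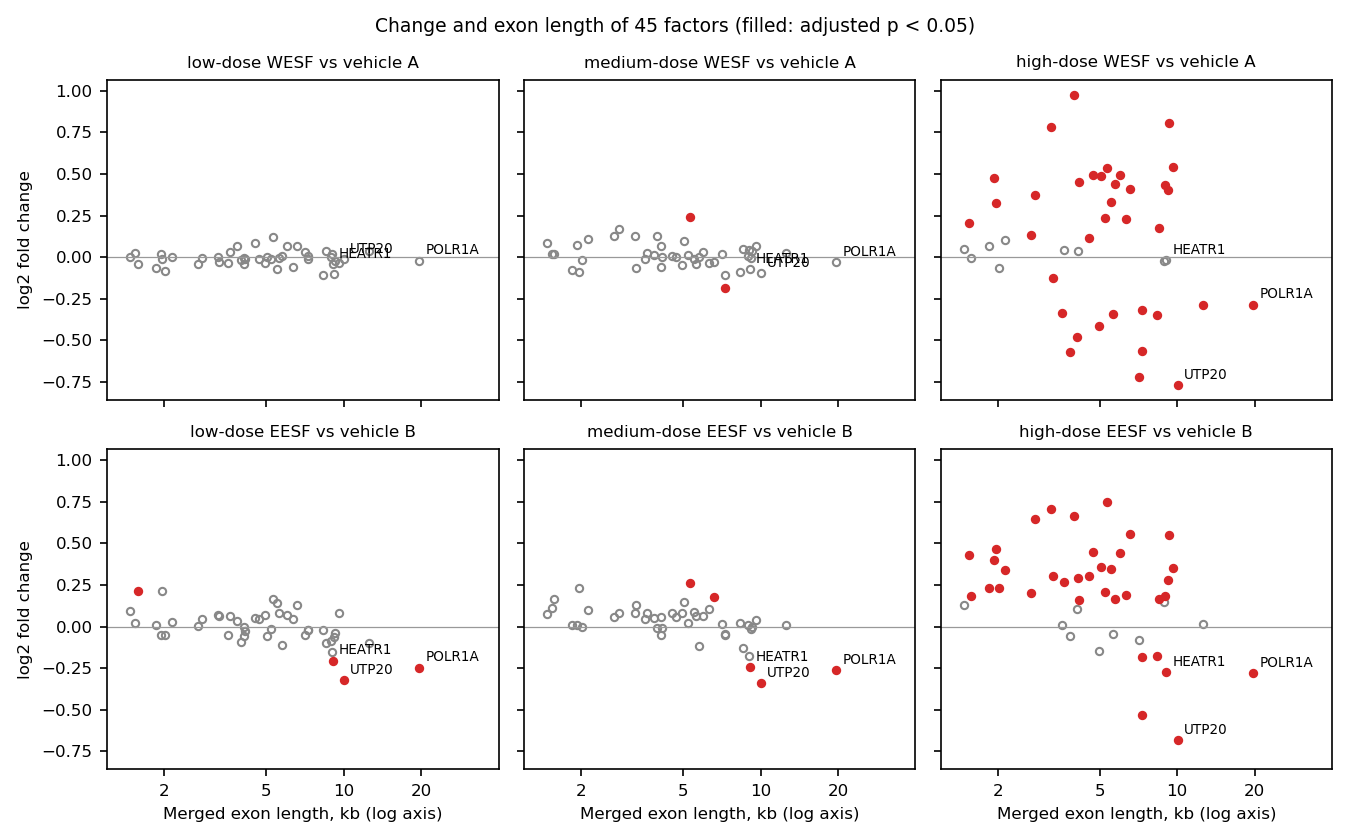
Log2 fold change of the 45 factors (y axis) against merged exon length in kb (log x axis) for each dose, filled where the adjusted p was under 0.05. At the low and medium EESF doses the 3 lower calls, POLR1A, UTP20 and HEATR1, sit at the long end.

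To compare the extracts, a fit of 12 libraries tested the change with high-dose EESF minus that with high-dose WESF. It was positive with an adjusted p under 0.05 for 13 factors (28.9%) and negative for 5 (11.1%), against 12.7 and 13.3% of 13376 genes tested. The number of positive differences depended on which libraries were included, as given below. UBTF and UTP14A also differed by more than 1.5-fold, where 2.13% of all genes were such DEGs with a positive and 1.75% with a negative difference. The median difference over the 45 was 0.14, and over all genes 0.02. The direction is relative to doses that differ and to batches that differ.

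UBTF had the smallest p of the 45 (difference 0.64, SE 0.08, adjusted p = 6.67e-05), with -0.72 for WESF and -0.08 for EESF. For UTP14A the difference was 0.59 (SE 0.09, adjusted p = 0.000347), with -0.48 and 0.11 from partly shared reads, and for BOP1 it was 0.51 (SE 0.11, adjusted p = 0.00325), with -0.57 and -0.06. UTP4, in the early subcomplex of the processome, was at 89.9, 86.6 and 89.1 CPM in vehicle A and 71.5, 66.8 and 71.3 CPM with WESF, and at 88.9, 85.0 and 88.5 CPM in vehicle B and 85.2, 86.6 and 82.6 CPM with EESF. It fell below the vehicle with WESF and overlapped it with EESF (difference 0.30, SE 0.06, adjusted p = 0.00282). NOP58, LAS1L, NOP14, NOP56, WDR43, SENP3, UTP3, RRP9 and NPM1 had positive differences between 0.17 and 0.43.

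Negative differences belonged to factors that rose more with WESF. That of NOLC1 was -0.31 (SE 0.06, adjusted p = 0.00138). RRP1B, a nucleolar protein of the large-subunit pathway, was at 92.5, 95.02 and 94.0 CPM in vehicle A and 126, 133 and 123 CPM with WESF, and at 94.0, 93.9 and 96.1 CPM in vehicle B and 109, 105 and 104 CPM with EESF. All treated libraries were above their vehicle, those with WESF by more (difference -0.28, SE 0.06, adjusted p = 0.00407). DDX21 (-0.26), RRN3 (-0.29) and POLR1B (-0.25) were the other 3.

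Of the 5 factors that fell with both extracts, NPM1 fell more with WESF (difference 0.17, adjusted p = 0.0431, a call lost in 12 of 19 alternative settings), and the difference did not pass for the other 4. The 95% interval of the difference was -0.10 to 0.28 for UTP20, -0.12 to 0.20 for TEX10, -0.19 to 0.21 for POLR1A and -0.04 to 0.32 for NOL9. GNL3 (-0.23 to 0.09) and POLR1C (-0.18 to 0.21) also did not pass. These intervals leave room for differences of up to 0.32 on the log2 scale, so the responses are not shown to be equal. Without 1 of the 12 libraries at a time, the number of positive differences ran from 8 to 19. It was 19 without replicate 1 of high-dose EESF, and 8 without replicate 1 of vehicle A, replicate 3 of high-dose WESF, replicate 3 of vehicle B or replicate 3 of high-dose EESF.

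Other genes of the pathway, outside the 45, were counted against the same shares of all genes, which were 34.3% higher and 34.6% lower with high-dose WESF and 29.3 and 28.7% with EESF. Of 10 other RNA polymerase I factors, 6 rose and 3 fell with high-dose WESF, and 6 rose and 1 fell with EESF, so that 60% were higher with each, while the 30% lower with WESF lay near the share of all genes. The promoter selectivity subunit TAF1A rose most with WESF (0.74, from 4.17 to 6.96 CPM) and the polymerase subunit POLR1H most with EESF (0.58, from 8.54 to 12.8 CPM), while TAF1B fell with both (-0.23 and -0.20). Of 35 other small-subunit factors, 20 rose with each extract, and 6 fell with WESF and 4 with EESF (57.1% higher with each, 17.1 and 11.4% lower). UTP6 rose most with WESF (0.80) and PWP2 most with EESF (0.78), whereas the helicase DHX37 fell most with WESF (-0.53) and UTP25 with EESF (-0.35). PWP2 was a gene of low level, at 2.41 CPM in vehicle B and 4.14 CPM with high-dose EESF, and at 3.17 CPM in vehicle A.

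Of 32 other large-subunit factors, 19 rose and 5 fell with WESF, and 24 rose and 1 fell with EESF (59.4 and 75% higher, 15.6 and 3.12% lower). The GTPase GTPBP4 rose most with both, from 80.1 to 154 CPM with WESF (0.94, SE 0.05, adjusted p = 3.9e-11) and from 82.2 to 135 CPM with EESF (0.71, SE 0.06, adjusted p = 6.63e-07). RRS1 fell most with WESF (-0.47), and MDN1, a very large AAA ATPase that remodels the precursor, was the gene that fell with EESF (-0.49). MDN1 had nearly the same mean at the low, medium and high EESF doses (86.01, 86.04 and 86.95 CPM), against 121.7 CPM in vehicle B. The median log2 fold change of these 3 lists was 0.19, 0.23 and 0.19 with WESF and 0.28, 0.23 and 0.25 with EESF.

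Fewer of the ribosomal protein genes themselves passed than of all genes. Of 79 genes for cytosolic ribosomal proteins, 8 rose and 11 fell with WESF (median -0.03), and 19 rose and 0 fell with EESF (median 0.13). With WESF, 10.1% were thus higher and 13.9% lower, against 34.3 and 34.6% of all genes. With EESF, 24.1% were higher and 0% lower, against 29.3 and 28.7% of all genes. With EESF, edgeR gave 24 of the 79 an unadjusted p under 0.05. RPL3 rose most with WESF (0.28) and RPL21 most with EESF (0.34), and RPS26 fell most with WESF, by 0.55 on the log2 scale, from 168, 161 and 141 CPM to 112, 95.5 and 114 CPM. The difference between extracts passed for 1 of them, RPS26 (0.44, adjusted p = 0.0174). Many of these genes have processed pseudogenes, and how reads were divided between copies could move their counts. In vehicle B, 77 of the 79 had a lower fitted level than in vehicle A, with a median of -0.08, although 0 passed in edgeR and 5 had an unadjusted p under 0.05.

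**Figure D5:**
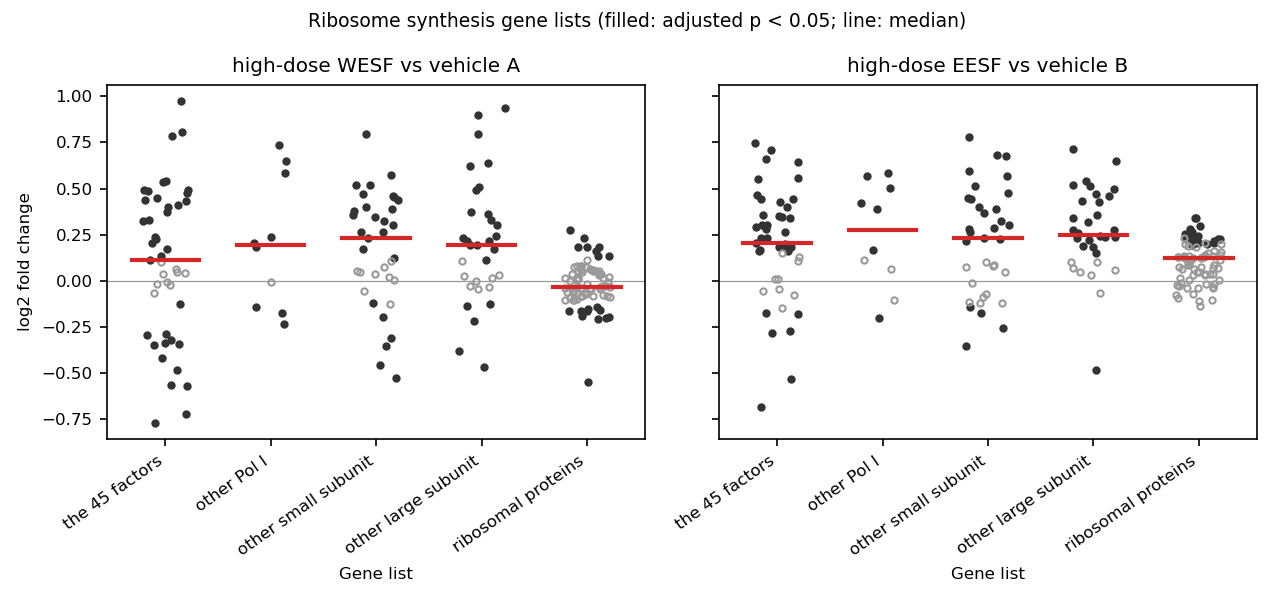
Log2 fold change of every tested gene in 5 lists (columns) under high-dose WESF (left) and high-dose EESF (right), filled where the adjusted p was under 0.05, with the list's median as a red line. The 45 factors span -0.77 to 0.98 with WESF and -0.68 to 0.75 with EESF, and ribosomal proteins the narrower ranges of -0.55 to 0.28 and -0.13 to 0.34.

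MYC, a transcription factor known to activate genes of ribosome synthesis, was at 64.3, 65.9 and 62.7 CPM in vehicle A and 107, 109 and 113 CPM with high-dose WESF (0.77, SE 0.04, adjusted p = 1.6e-10). In batch B it was at 64.1, 66.6 and 64.9 CPM in the vehicle and 78.1, 85.7 and 89.3 CPM with high-dose EESF (0.37, SE 0.06, adjusted p = 0.000214). The high-dose libraries were above the vehicle in both batches, and the difference between extracts was -0.39 (adjusted p = 0.00122). At the lower EESF doses it went the other way, with 52.8, 50.3 and 50.3 CPM at the low dose (-0.36, adjusted p = 0.00131) and 56.6, 59.4 and 54.6 CPM at the medium dose (-0.19, adjusted p = 0.015). Medium-dose WESF gave 0.16 (adjusted p = 0.067).

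Of the 7 genes of the MYC network, 4 rose and 1 fell with high-dose WESF, and 1 rose and 2 fell with EESF. With so few genes these shares (57.1 and 14.3% with WESF, 14.3 and 28.6% with EESF) say little beside the 34.3 and 34.6%, and 29.3 and 28.7%, of all genes. The partner MAX fell with both, from 55.4 to 37.9 CPM with WESF (-0.55) and from 57.3 to 43.7 CPM with EESF (-0.39). MXD1, which competes with MYC for MAX, rose with WESF from 9.56 to 20.1 CPM (1.07, SE 0.08), and with EESF its change of 0.14 did not pass (difference -0.93, adjusted p = 0.000214). Of 18 proliferation genes, 7 rose and 9 fell with WESF, and 6 rose and 10 fell with EESF. The 38.9 and 33.3% that rose lay near the shares of all genes, and the 50 and 55.6% that fell were above them. MCM3, part of the replicative helicase, fell most with both (-1.46 and -0.87), while the mitotic kinases BUB1 (0.83 with WESF) and AURKB (0.76 with EESF) rose most. The part of the cell cycle in the levels of the 45 factors was not tested.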

How the data were processed

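RNA from 24 libraries of SW1783 cells was sequenced. Per the methods and the submitters' processing notes, the authors checked reads with FastQC 0.11.9, trimmed them with Trim Galore 0.6.6, aligned them with STAR 2.7.9a and counted them with RSEM 1.3.3, and the deposited values are expected counts per Ensembl gene, not normalized. In the methods the genome is named GRCh38 with hg19 in brackets, and the identifiers belong to GRCh38. RSEM divides reads shared by several genes, and 10.9% of values were not whole. Symbols, positions and exon lengths came from the GENCODE release for GRCh38, and promoter windows from RefSeq (GRCh38.p14). No column of the table was left unused.

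Counts were rounded, protein-coding genes passing filterByExpr were kept, and each dose was fitted with the vehicle of its batch (6 libraries) in edgeR 4.0.16 (TMM, quasi-likelihood test, 2-sided) under R 4.3.3. The difference between extracts was an interaction in 12 libraries. The methods used DESeq2, run here (1.42.0) as an alternative beside other size factors, filters, gene sets, thinned counts, wider fits, a replicate block and the omission of each library. The tests were tried on simulated counts. The members and lists were chosen with earlier results of these data known. Library values were given for the member with the largest change in each role and high-dose comparison, the 6 of smallest p in the difference, and the 2 of smallest p at lower doses. They were also given for NOP58, because it was called in opposite directions. Of other lists, the gene with the largest rise and fall was named, and MYC. Chi-square values between replicates, divided by their degrees of freedom, were 2.05 to 14.1, above what counting error gives. How far depth or the number of libraries limits precision was not tested.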

Additional observations from a re-analysis of the deposited data

Results flagged for a closer look

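For 18 factors the change with high-dose EESF differed from that with high-dose WESF by a test of the difference itself (edgeR, adjusted p under 0.05), which is what drew attention to them. Of the 45, 28.9% had a positive and 11.1% a negative difference, against 12.7 and 13.3% of all 13376 genes tested. The positive share was not stable: it moved when single libraries were left out and was lower with the replicate block. The log2 differences, EESF minus WESF, were 0.64 for UBTF, 0.59 for UTP14A, 0.51 for BOP1, 0.43 for NOP58, 0.35 for NOP14, 0.30 for LAS1L, 0.30 for UTP3 and 0.30 for UTP4. Smaller positive differences were 0.27 for NOP56, 0.26 for WDR43, 0.23 for RRP9, 0.22 for SENP3 and 0.17 for NPM1. Negative differences were -0.31 for NOLC1, -0.29 for RRN3, -0.28 for RRP1B, -0.26 for DDX21 and -0.25 for POLR1B. Of the 18 calls, 10 held in every alternative setting and 8 were lost in some. Among the latter, the call for RRP9, NPM1 and POLR1B was lost in 10, 12 and 13 of 19 settings. The extracts were given at different doses and in different batches, which cannot be told apart from the extract.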

How the results depend on the processing

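For the genes named by role, dose or difference, 388 of 400 alternative values kept their direction and side of the threshold, 12 lost the call and 0 reversed. For the median log2 fold change of the factors, 101 alternative values were classed as the same and 9 as moved. Calls that held in every alternative numbered 33 of 36 with high-dose WESF, 25 of 36 with high-dose EESF, 10 of 18 for the difference between extracts, 0 of 2 with medium-dose WESF, 2 of 5 with medium-dose EESF and 1 of 4 with low-dose EESF. The calls lost in some setting were those of UTP18, NOP58 and PES1 with high-dose WESF, and of RRN3, POLR1B, NOP58, RRP12, UTP3, NOL9, RRP1B, UTP18, NAT10, UTP15 and NOP10 with high-dose EESF. With DESeq2, 0 factors were lower with medium-dose WESF. With all genes of the table, or all groups of the batch, in the fit, 1 factor was higher with medium-dose EESF. The difference between extracts gave 1 DEG in place of 2 with DESeq2's test, with its size factors, with all genes and with thinned counts. Same-numbered libraries did not deviate together (correlations of -0.08 to 0.13), so the numbers pair nothing. The replicate block gave 0 lower factors with medium-dose WESF, 2 higher with low-dose EESF, 8 positive differences in place of 13, and 1 higher and 1 lower factor between vehicles. Leaving out 1 library in turn, the number of higher factors ran from 0 to 4 with medium-dose WESF, 0 to 2 with medium-dose EESF, 0 to 3 with low-dose EESF and 8 to 19 for the difference. The number of lower factors ran from 0 to 1 with medium-dose WESF, 2 to 5 with medium-dose EESF and 1 to 3 with low-dose EESF. DEGs in the difference ran from 1 to 3. The cause of these shifts was not tested. With counts thinned to the same total in each library, 0 of the values for named genes reversed.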
